A study of Rattus norvegicus with 2 samples.

Results

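The genes described here encode the machinery of programmed cell death, with the Bcl2 family, the caspases and their adaptors and inhibitors, the kinases and pore proteins of necroptosis and pyroptosis, and some p53-linked and stress genes. Of 48 genes listed, 47 had a probe set annotated with exactly 1 gene symbol, out of 22093 such genes on the array. Where several probe sets named a gene, the brightest by its mean over both arrays was used. RNA came from newborn rat epidermal keratinocytes (NRK cells), epithelial cells of the skin surface, grown in medium with hydrocortisone, antibiotics and 10% serum. One array holds cells after 5 days in all-trans retinoic acid (RA) at 5 µM, a vitamin A metabolite that activates nuclear receptors and was dissolved here in dimethyl sulfoxide. The other holds cells kept for 5 days without it, taken as the vehicle control since its title names no treatment and the design text gives only RA and vehicle. Whether cultures were pooled for an array is not stated in the labels.

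With 1 array per group, there is no estimate of error, and the spread between cultures is unknown. Levels are log2 signals as deposited, and each difference is RA minus without RA in log2 units, so that a difference of 1 is 2-fold on the deposited scale. A floor was set at 3.81, the median over both arrays, and the 14274 genes that reached it on at least 1 array are called above the floor. Among control probe sets, 11.9% of the 1153 negative controls were higher with RA by 2-fold or more and 15.7% lower. Of the 399 positive controls, 12.5% were higher by 2-fold or more and 15.3% lower. Their medians were 10.28 with RA and 10.24 without RA, and whether those past 2-fold were the dimmer ones was not tested. The medians of the negative controls, 4.47 with RA and 4.57 without RA, exceeded 3.81, so a gene above the floor is not thereby detected. Of 9 keratinocyte markers measured, 7 were at least 2-fold lower with RA and 0 were higher, among them Krt14 at 12.25 with RA and 19.93 without RA, whereas the basal keratin gene Krt15 was at 19.65 with RA and 19.60 without RA. Krt14 without RA was at the highest value of the deposited scale and Krt15 was close to it on both arrays, where a difference may not be measurable.

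Apoptosis is the ordered dismantling of a cell. In its mitochondrial branch, BH3-only proteins neutralise survival proteins such as Bcl2 and Mcl1 and let Bax and Bak1 open the outer mitochondrial membrane, after which cytochrome c and Apaf1 form the apoptosome that activates caspase-9. In its death receptor branch, Fas and Fadd activate caspase-8, which Cflar restrains, and where caspase-8 is blocked, Ripk1 and Ripk3 can instead drive Mlkl to rupture the plasma membrane, a process called necroptosis. Inflammatory caspases and gasdermins cause pyroptosis, another lytic death. In epidermis, caspase-8 loss in keratinocytes is known from mice to cause Ripk3- and Mlkl-dependent skin inflammation.

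The listed genes were chosen with earlier results of these data known, so the comparisons with all genes below are descriptions and not tests. Of the 47 genes, 41 were above the floor, each on both arrays. With RA, 11 of these 41 were at least 2-fold higher (26.8%), against 7.88% of all genes above the floor. Only 1 of the 41, Casp12, was at least 2-fold lower (2.44%), against 5.63% of all genes. The median difference of the 41 was 0.46, with quartiles of -0.03 and 1.03, and that of all genes was -0.03, with quartiles of -0.29 and 0.26. With no floor, the median over all 47 was 0.18. At the threshold of 4-fold, 7 of the 41 were higher, against 3.05% of all genes, and 0 were lower, against 285 of the 14274 genes (2%). The listed gene Trp53inp1, not matched under that symbol, is outside these counts. Under the symbol Tp53inp1 its difference was -2.21, past 4-fold. The shares of all genes past 2-fold were below those of the control probe sets given above. Most positive controls differed by between -1.72 and 2.14, a range that holds Casp1, Casp8, Mlkl, Bid, Aifm1, Cflar and Casp12. The controls were recognised by their names alone, and whether their spread applies to the probe sets of genes was not tested. The 41 were brighter than most genes, with a median signal of 7.56 against 6.37 for all genes above the floor. With a floor at the 75th percentile of all values, 5.45, the same comparison gave 11 of 36 higher (30.6%) against 11.5% of 9460 genes, and 1 lower (2.78%) against 8.25%. In such RNA from whole cultures, a change in the share of cells of one type and a change in RNA per cell cannot be told apart.

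**Figure D1:**
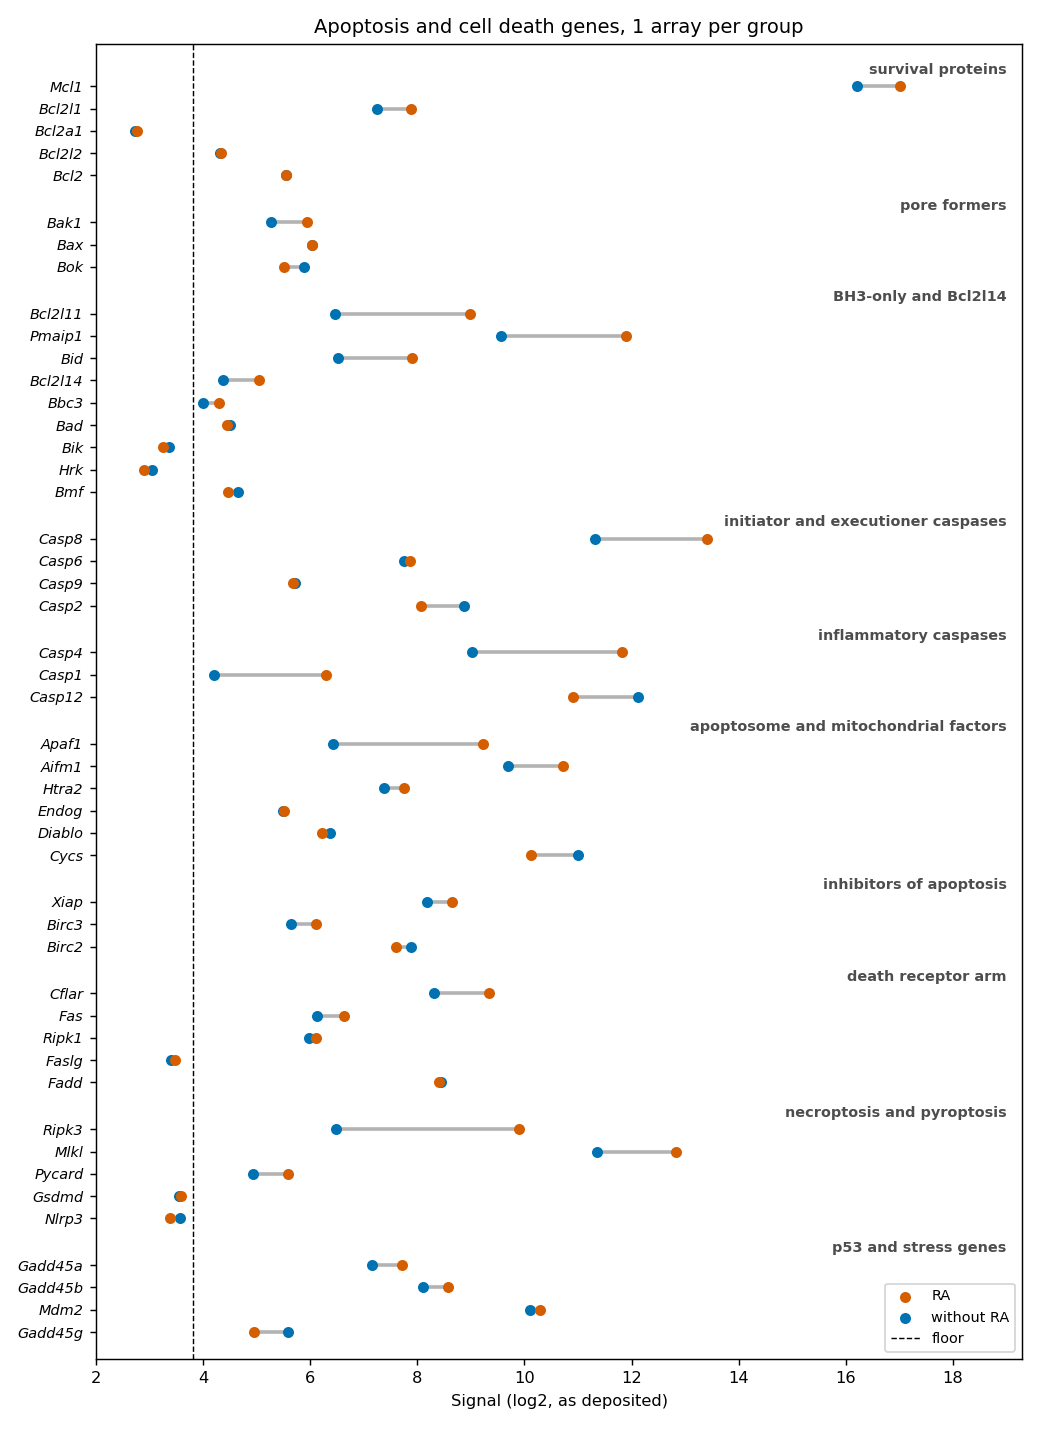
Signal of each of the 47 genes in log2 units on the RA array (orange) and the array without RA (blue), grouped by role, with the floor of 3.81 as a dashed line. The longest connecting lines are those of Ripk3, Apaf1, Casp4 and Bcl2l11, each with RA to the right, while most survival and pore-forming genes have overlapping or nearby points.

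The gene with the largest difference was Ripk3, the kinase that starts necroptosis, at 9.91 with RA and 6.47 without RA. Its difference of 3.43 ranked 139th of the 14274 genes. Mlkl, the pore-forming protein that Ripk3 phosphorylates, was at 12.82 with RA and 11.35 without RA, a difference of 1.47. The kinase with both survival and death roles upstream of Ripk3, Ripk1, was at 6.11 with RA and 5.98 without RA. So the kinase and the effector of necroptosis were higher by over 2-fold, and the difference of Ripk1 was 0.14.

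Among pyroptosis genes, Pycard, the adaptor of inflammasomes, was at 5.59 with RA and 4.93 without RA, within 2-fold. Gsdmd, the pore protein cut by inflammatory caspases, and Nlrp3, an inflammasome sensor, were under the floor on both arrays. Gsdmd had 3.60 with RA and 3.56 without RA, and Nlrp3 had 3.39 with RA and 3.57 without RA.

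The inflammatory caspases differed in both directions. Casp4, the rodent caspase-11 that senses bacterial lipopolysaccharide inside the cell, was at 11.83 with RA and 9.03 without RA, a difference of 2.80. Casp1, which matures interleukin-1 beta, was at 6.30 with RA and 4.21 without RA, a difference of 2.09. The lower value of Casp1 lay under the median of the negative controls, so that it may be background and the true difference larger. Casp12, a caspase of the same subfamily, was at 10.90 with RA and 12.12 without RA, a difference of -1.22. In the RefSeq annotation of assembly GRCr8 these 3 genes follow each other on chromosome 8 with only long noncoding RNA genes between them, so that direct neighbours had differences of opposite sign. The 3 sequences are related, and signal shared between their probe sets was not tested.

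Immune cells also express Ripk3, Casp1 and Casp4. Of 12 immune markers, 4 were above the floor, and 1 of them, the lysosomal gene Cd68, was at least 2-fold higher, at 11.31 with RA and 5.41 without RA. The other 3 were Cd74, at 4.98 with RA and 4.13 without RA, Cd14, at 7.24 with RA and 6.40 without RA, and Cd3g, which differed by 0.02. The median difference of these 4 was 0.85, of the same sign as those of Ripk3, Casp1 and Casp4. The summed log2 signal of the 12 was 54.23 with RA and 47.12 without RA, or 42.92 with RA and 41.71 without RA when Cd68 was left out. The leukocyte marker Ptprc was under the floor at 3.42 with RA and 3.53 without RA, as were Csf1r, Itgam, Aif1, Laptm5, Lyz2, Cd3e and the Langerhans cell marker Cd207 on both arrays. Of 10 fibroblast markers, 6 were above the floor, 1 higher and 2 lower by 2-fold or more. Of 7 melanocyte markers, 2 were above it and within 2-fold, and of 6 endothelial markers, 2 were above it and 1 was lower. The part of such cells in the differences of Ripk3, Casp1 and Casp4 was not tested.

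In the death receptor arm, Casp8, the initiator caspase of this branch, was at 13.41 with RA and 11.32 without RA, a difference of 2.09. Its regulator Cflar, a catalytically inactive relative of caspase-8, was at 9.33 with RA and 8.30 without RA, and its difference of 1.03 lay just past the threshold. After a further quantile normalization the difference of Cflar was 0.95, under 2-fold. In the same RefSeq annotation Casp8 and Cflar lie on chromosome 9 with 1 long noncoding RNA gene, LOC100909946, between them. That gene was at 4.07 with RA and 5.04 without RA, and the protein-coding genes on either side, Ndufb3 and Flacc1, had differences of 0.01 and 0.40. The receptor gene Fas was at 6.64 with RA and 6.13 without RA, and the adaptor gene Fadd at 8.41 with RA and 8.44 without RA. Faslg, the ligand of Fas, was under the floor, at 3.47 with RA and 3.39 without RA.

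Among the genes of the mitochondrial branch, 3 of 7 genes above the floor (BH3-only genes and Bcl2l14) passed 2-fold, all higher. Bcl2l11, which encodes Bim, a BH3-only protein that binds all survival proteins of the family, was at 8.99 with RA and 6.47 without RA, a difference of 2.51. Pmaip1, which encodes Noxa, the BH3-only partner of Mcl1, was at 11.90 with RA and 9.57 without RA, a difference of 2.33. Bid, which links caspase-8 to mitochondria, was at 7.90 with RA and 6.51 without RA, a difference of 1.39. These 3 genes ranked 268th, 315th and 765th among all genes from the highest difference. Bcl2l14, a family member of less settled function, was at 5.05 with RA and 4.37 without RA. Bbc3, the p53 target Puma, differed by 0.29, Bad by -0.05 and Bmf by -0.20. Their signals, none over 4.65, were close to those of the negative controls, and Bik and Hrk were under the floor on both arrays.

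The survival genes differed less. Mcl1, a short-lived survival protein and the brightest of the 47 genes, was at 17.01 with RA and 16.21 without RA, a difference of 0.80. Both values exceed 16, the most that a 16-bit scan can hold on a log2 scale, and so lie in a range that an unstated step of the processing must have stretched. Bcl2l1, which encodes Bcl-xL, was at 7.88 with RA and 7.24 without RA, a difference of 0.64. Bcl2 and Bcl2l2 differed by -0.01 and 0.02, and Bcl2a1 was under the floor at 2.76 with RA and 2.73 without RA. Bcl2l2, at 4.33 with RA and 4.31 without RA, lay under the medians of the negative controls, so a difference may not be measurable. None of the 4 survival genes above the floor reached 2-fold as deposited. The difference of Mcl1 was 1.28 after a further quantile normalization and 1.66 after removal of a lowess curve over all probe sets.

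The pore formers were within 2-fold. Bak1 was at 5.94 with RA and 5.27 without RA, Bax at 6.04 with RA and 6.03 without RA, and Bok, a relative that depends less on BH3-only proteins, at 5.52 with RA and 5.89 without RA.

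Downstream of mitochondria, Apaf1, the scaffold of the apoptosome, had the second largest difference of the 47 genes, at 9.23 with RA and 6.42 without RA, a difference of 2.81 that ranked 212th of 14274. Its partner Cycs, cytochrome c, was at 10.12 with RA and 11.01 without RA on the brighter of its 2 probe sets, which carries no gene ID in the platform annotation. The name of that probe set points to chromosome 18, while Cycs lies on chromosome 4, and whether it measures Cycs was not tested. On the probe set with a gene ID, Cycs was at 8.73 with RA and 9.02 without RA, and both differences were within 2-fold. Casp9, the caspase that the apoptosome activates, was at 5.68 with RA and 5.72 without RA. Of the 3 apoptosome components, only Apaf1 therefore passed 2-fold.

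Aifm1, a mitochondrial flavoprotein needed for respiration that can also act in caspase-independent death, was at 10.72 with RA and 9.68 without RA, a difference of 1.03 just past the threshold. The other proteins of the intermembrane space were within 2-fold. Htra2, a serine protease, was at 7.74 with RA and 7.37 without RA, Diablo, which antagonises inhibitors of apoptosis, at 6.22 with RA and 6.37 without RA, and Endog, a nuclease, at 5.51 with RA and 5.49 without RA.

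Of the other caspases, Casp2, an initiator linked to DNA damage and chromosome number, was at 8.06 with RA and 8.88 without RA, a difference of -0.82. Casp6, an executioner caspase, was at 7.87 with RA and 7.76 without RA, and its dimmer probe set also differed by less than 2-fold, by 0.17. The inhibitors of apoptosis, ubiquitin ligases of which Xiap blocks caspases directly, were within 2-fold as well. Xiap was at 8.65 with RA and 8.18 without RA, Birc3 at 6.11 with RA and 5.64 without RA, and Birc2 at 7.60 with RA and 7.88 without RA.

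Of the p53-linked and stress genes, the 4 matched under their listed symbols showed no difference of 2-fold. Mdm2, the ubiquitin ligase that degrades p53 and is itself a p53 target, was at 10.28 with RA and 10.10 without RA. Gadd45a and Gadd45b, stress-induced regulators of kinase signalling, were higher by 0.57 and 0.46, and Gadd45g was at 4.96 with RA and 5.59 without RA. Trp53inp1 was not matched under that symbol. Tp53inp1, for which RefSeq lists it as a synonym, was at 7.91 with RA and 10.12 without RA, a difference of -2.21, and is left out of all counts above.

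**Figure D2:**
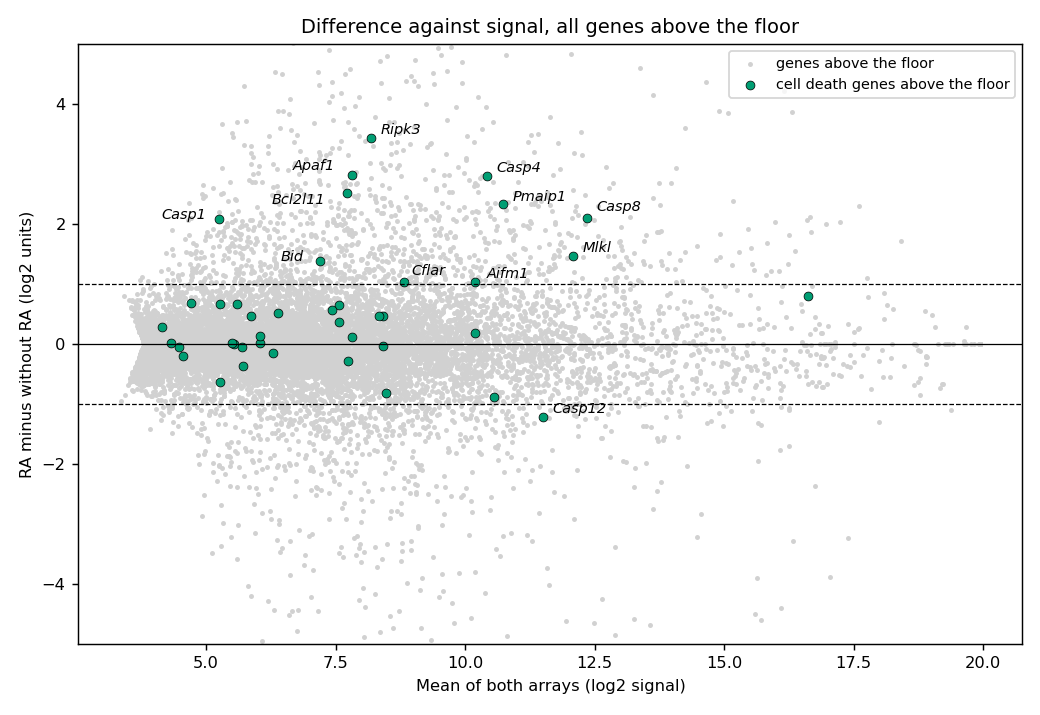
Difference (RA minus without RA, log2 units) against the mean log2 signal of both arrays for the genes above the floor (grey) and the 41 cell death genes above it (green), with dashed lines at 2-fold. The 60 genes over 5 units higher and the 62 over 5 units lower lie outside the axis, and the named points are the 11 genes at least 2-fold higher and Casp12.

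Sequences around the starts of these genes were set beside the differences. RefSeq windows of 300 bases, from 250 before to 50 after the annotated start on assembly GRCr8, were matched by gene ID for 36 of the 47 genes, 9 of them among the 11 higher ones. The higher genes Casp4 and Casp8 had no window and were not searched. Both strands were searched for 7 patterns, chosen with the differences known. The windows shown are that of Ripk3 as the gene with the largest difference, and those of Casp1, Cflar and Casp12, which share the interferon-response pattern although Casp12 was lower. Each is read 5′ to 3′ in the direction of the gene, and capitals mark the matches.
Ripk3 (chr15:33261976-33262275, minus strand): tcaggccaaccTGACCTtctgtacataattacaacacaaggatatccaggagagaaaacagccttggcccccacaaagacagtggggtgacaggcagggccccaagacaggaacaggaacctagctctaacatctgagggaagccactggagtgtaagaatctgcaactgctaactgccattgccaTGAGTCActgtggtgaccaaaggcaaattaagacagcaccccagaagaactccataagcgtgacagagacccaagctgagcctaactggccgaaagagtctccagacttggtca
Casp1 (chr8:10872580-10872879, plus strand): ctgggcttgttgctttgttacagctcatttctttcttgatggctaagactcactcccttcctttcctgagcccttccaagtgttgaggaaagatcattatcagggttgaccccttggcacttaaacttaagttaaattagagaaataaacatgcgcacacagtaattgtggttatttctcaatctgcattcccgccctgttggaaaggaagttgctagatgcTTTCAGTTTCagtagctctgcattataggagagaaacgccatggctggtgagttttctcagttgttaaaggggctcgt
Cflar (chr9:67679299-67679598, plus strand): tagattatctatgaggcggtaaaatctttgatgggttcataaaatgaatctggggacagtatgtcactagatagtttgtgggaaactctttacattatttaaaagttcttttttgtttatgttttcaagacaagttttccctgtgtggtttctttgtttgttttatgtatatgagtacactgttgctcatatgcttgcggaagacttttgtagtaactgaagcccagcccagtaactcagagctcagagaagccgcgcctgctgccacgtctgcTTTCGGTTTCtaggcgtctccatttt
Casp12 (chr8:10926938-10927237, plus strand): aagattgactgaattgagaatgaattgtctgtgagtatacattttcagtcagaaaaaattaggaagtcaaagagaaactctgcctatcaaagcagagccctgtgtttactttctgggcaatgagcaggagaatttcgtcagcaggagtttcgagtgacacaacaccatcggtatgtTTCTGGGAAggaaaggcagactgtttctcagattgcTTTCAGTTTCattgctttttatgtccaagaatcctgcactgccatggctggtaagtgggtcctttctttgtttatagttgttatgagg
In Ripk3 the capitals mark the hexamer of retinoic acid receptor elements (AGGTCA, here on the opposite strand) and the AP-1 pattern TGANTCA. In Casp1 and Cflar they mark the core of the interferon-stimulated response element (GAAA, any 2 bases, GAAA) on the opposite strand. Casp12 holds the same core, and the first run of capitals in it is the STAT pattern TTCNNNGAA. The matches within a window do not overlap.

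The interferon core was in 4 of the 36 windows (11.1%), those of Casp1, Casp12, Cflar and Fas, and in 3.77% of 27457 windows, 1 per gene. Only 2 of the 9 higher genes with a window held it, Casp1 and Cflar. The related neighbours Casp1 and Casp12 had the same letters at the match, so these may not be independent. The STAT pattern was in 3 of the 36 (8.33%) and in 8.68% of all windows. The receptor hexamer was in 5 of the 36 (13.9%) against 15.7%, and the AP-1 pattern in 5 (13.9%) against 7.33%. The E2F patterns TTTCCCGC and TTTGGCGC were in 2 and 0 of the 36, against 1.03% and 0.521% of all windows, and the NF-kappaB pattern (GGG, any 2 bases, TTTCC) was in 1, Mcl1, against 1.51%. Of the 9 higher genes with a window, 6 held none of the 7 patterns, among them Apaf1, Bcl2l11 and Pmaip1. A match of letters is a description of the window and does not show a binding site.

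Other genes of these pathways were described in 4 lists, whose medians were close to that of all genes while 3 of the 4 had larger shares past 2-fold, in both directions, than the 7.88% higher and 5.63% lower of all genes. Among 32 further apoptosis genes above the floor, 6 passed 2-fold as higher (18.8%) and 3 as lower (9.38%), and the median difference was 0.01. Casp14, the caspase of cornifying epidermis that takes part in filaggrin processing and not in apoptosis, was at 5.15 with RA and 11.50 without RA, a difference of -6.35. Siva1, a proapoptotic protein, and Bnip3, a hypoxia-linked mitophagy receptor, were higher by 1.93 and 1.79. Pdcd4, an inhibitor of translation, was at 13.03 with RA and 14.63 without RA.

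Among 19 other necroptosis and pyroptosis genes above the floor, 2 passed 2-fold as higher (10.5%) and 3 as lower (15.8%), and the median was -0.07. The epithelial gasdermin genes Gsdmc and Gsdma were at 7.22 and 7.16 with RA and at 11.12 and 9.96 without RA, with differences of -3.90 and -2.79. Cyld, a deubiquitinase that acts on Ripk1, was at 8.03 with RA and 6.74 without RA, and Nek7, a partner of Nlrp3, at 8.87 with RA and 10.06 without RA. Both gasdermin genes thus differed in the direction opposite to Ripk3 and Mlkl. Gsdme, named after its value was seen, was at 4.49 with RA and 4.31 without RA. These values are close to the medians of the negative controls, so a difference may not be measurable.

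Of 24 p53 pathway genes above the floor, 5 passed 2-fold as higher (20.8%) and 3 as lower (12.5%), and the median was 0.03. The 3 lower ones were Perp, a desmosomal p53 and p63 target (15.78 with RA and 19.02 without RA), Tp63, the p53 relative that maintains stratified epithelia (9.09 with RA and 11.86 without RA), and Tp73 (5.34 with RA and 7.39 without RA). Polk, a translesion DNA polymerase, was higher by 1.56, and the cell cycle inhibitor gene Cdkn1a, named after its value was seen, by 1.17. Of 20 survival kinase and NF-kappaB genes, 1 passed 2-fold as higher (5.00%) and 0 as lower, and the median was -0.08. That gene was Nfkbia, the feedback inhibitor of NF-kappaB, at 10.37 with RA and 8.45 without RA, and the next in size were Foxo1, Foxo3 and Pdk1 with -0.84, 0.77 and 0.53.

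**Figure D3:**
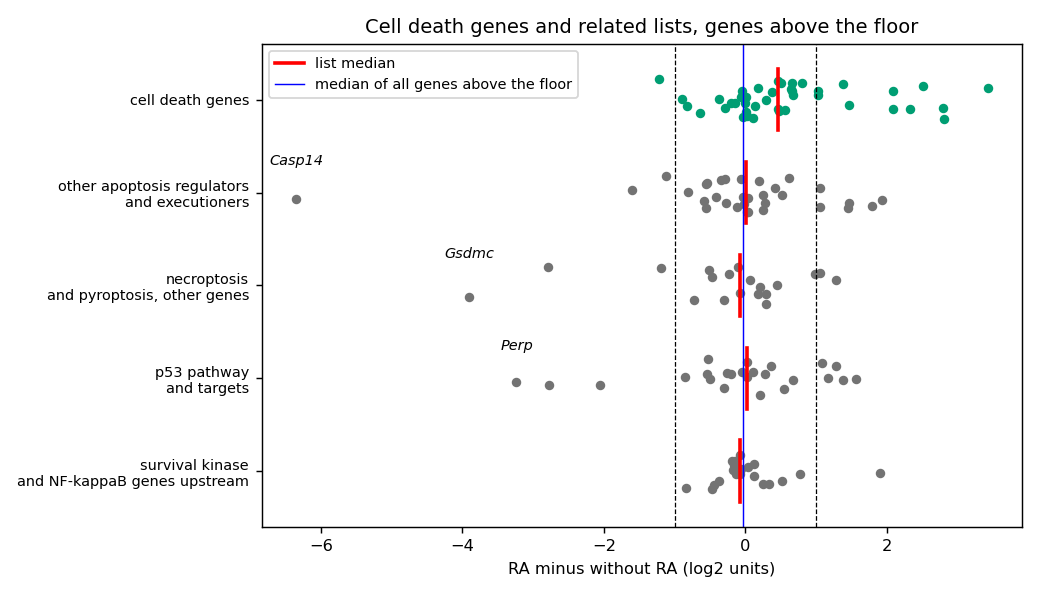
Differences (RA minus without RA, log2 units) of the 41 cell death genes (green) and of 4 lists of related genes above the floor (grey), with list medians in red, the median of all genes as a blue line and dashed lines at 2-fold. The red line of the cell death genes stands at 0.46 and those of the 4 lists between -0.08 and 0.03, and Casp14, Gsdmc and Perp are the lowest points of their lists.

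How the arrays are scaled moved single genes by different amounts. A lowess curve over all probe sets moved the median of all genes by 0.10, and with it 12 of the 41 passed 2-fold as higher and 0 as lower, since Mcl1 passed 2-fold and Casp12, at -0.80, did not. For Ripk3 the difference ran from 3.40 to 3.54 over the 6 scalings and probe set rules tried, for Apaf1 from 2.78 to 2.91 and for Bcl2l11 from 2.48 to 2.61. Raising values to the floor and averaging probe sets could not change these genes.

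**Figure D4:**
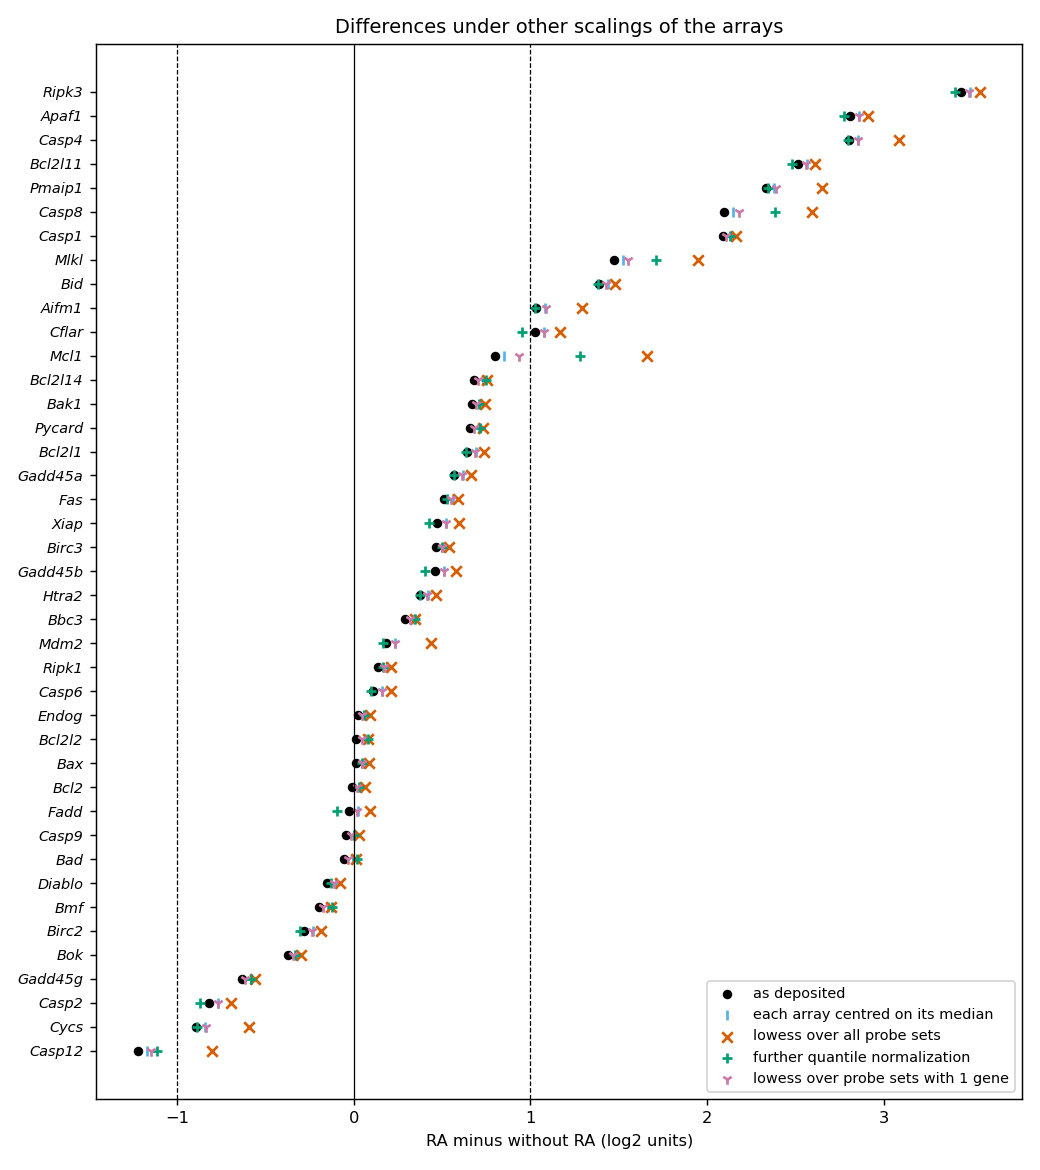
Difference of each of the 41 genes above the floor (log2 units) as deposited and under 4 other scalings of the arrays, ordered by the deposited value, with dashed lines at 2-fold. Markers lie close together for most genes, and the widest spread is that of Mcl1, from 0.80 to 1.66.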

How the data were processed

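RNA was labelled with biotin by a whole-transcript kit and hybridised to 2 GeneChip arrays, 1 per group, per the labels' protocols. The deposited table gives a log2 signal per probe set, which the authors made with the Transcriptome Analysis Console and RMA, a method that corrects background, normalizes arrays and summarises probes, per the submitters' processing notes (versions and order not stated there). The values themselves set the log base. Both columns end at 19.93, above a 16-bit scanner's ceiling, and no source used here names the step that stretched them.

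Of 70580 probe sets, 23446 had 1 symbol in the platform annotation, 505 several and 46629 none, and only the first were used. Symbols were updated by Entrez ID against RefSeq (GRCr8), where 22077 matched and 1 changed. Differences, counts past 2-fold and medians were computed with Python 3.11.15, numpy 2.4.6, pandas 2.3.3 and statsmodels 0.14.6. The counting was tested on simulated data with less noise than the control probe sets showed. That run checks the counting only and does not give the error of these arrays. No test was possible with 1 array per group, whose number limits the precision. The members and lists were chosen with earlier results of these data known. Every member may be named, and in each list of related genes the 4 above the floor with the largest absolute difference. Alternatives were other scalings, probe set rules, floors and thresholds, and for the median the mean and the list without its most changed gene.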

Additional observations from a re-analysis of the deposited data

How the results depend on the processing

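No paired analysis was possible because there is only 1 array with RA and 1 without, so none could be left out either. The count of cell death genes at least 2-fold higher, 11 as reported, was 11 or 12 under every scaling, floor and probe set rule tried, 16 with a threshold of 1.5-fold (39.0% of the 41, against 13.9% of all genes) and 7 with a threshold of 4-fold. The count of lower genes, 1 as reported, was 0 after lowess over all probe sets and at 4-fold, 4 at 1.5-fold (9.76%, against 12.3% of all genes), and 2 with Tp53inp1 counted, a setting chosen after seeing the data. The median difference of 0.46 was 0.18 with no floor, where the 6 genes near background enter, 0.62 as a mean, and 0.42 without Ripk3. It ran from 0.41 to 0.54 under the other scalings, which include a lowess fit to the 1-symbol probe sets, added after seeing the data. Leaving out probe sets without a gene ID, also added then, changed neither count. Of 246 single-gene values under the 6 scalings and probe set rules, 242 kept their side of 2-fold, 2 gained it (Mcl1) and 2 lost it (Casp12 and Cflar), and the cause was not tested. Raising values to the floor could change none of the 41 genes, and averaging probe sets only Casp6 and Cycs. Many of the 242 were therefore fixed in advance and do not show stability. Bcl2, Bad, Casp9 and Fadd, all within 0.1 of 0, changed sign under at least 1 setting.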
